A study of Mus musculus with 3 samples.

Results

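Glucocorticoid signalling was followed in the stromal cells of mouse subcutaneous fat through 8 genes, of 32285 genes counted. They were listed by name: the receptor Nr3c1, the hormone-converting enzymes Hsd11b1 and Hsd11b2, and the response genes Fkbp5, Tsc22d3, Zbtb16, Sgk1 and Klf9. All 8 passed the filter on low counts. The cells came from the inguinal depot of 3 wild-type C57BL/6J males aged 8 weeks, with a library for each mouse and a single, untreated condition. Fat was digested with collagenase at 37°C and depleted by sorting of endothelial (CD31+) and blood (CD45+) cells. Floating mature adipocytes had been discarded, so the data hold mainly precursors and other stromal cells, with a few residual endothelial and blood cells. No hormone was given or measured, and nothing in the labels records the hour of collection.

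Corticosterone, the main glucocorticoid of the mouse, enters cells and binds the glucocorticoid receptor, which is held in the cytoplasm by heat-shock chaperones. The bound receptor moves to the nucleus, where it raises the transcription of some genes and restrains others, among them many inflammatory ones. How much hormone reaches the receptor is set inside the cell as well: Hsd11b1 regenerates active hormone from its inert keto form, with NADPH supplied by H6pd, and Hsd11b2 carries out the opposite step. In fat, glucocorticoids are known as inducers of adipocyte differentiation and are part of the standard cocktail used to start it in culture. Of the response genes, Fkbp5 encodes a chaperone-bound brake on the receptor, Tsc22d3 the anti-inflammatory protein GILZ, Zbtb16 the zinc-finger repressor PLZF, Sgk1 a serum- and hormone-induced kinase, and Klf9 a Krüppel-like transcription factor.

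The receptor binds an inverted repeat, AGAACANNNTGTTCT, and a single arm of it, AGAACA or its reverse complement TGTTCT, can also be contacted. RefSeq promoter windows of 300 bases (250 before and 50 after a start, build GRCm38.p6) were at hand for 5 of the 8 genes, in 12 windows. The full repeat stood in 3 of 32851 windows of all genes (0.00913%), and one of those 3 belonged to Sgk1. The short form, searched on both strands and included in every full repeat, was found in 19.0% of all windows and in 4 of the 12 windows here, 3 of Sgk1 and 1 of Tsc22d3. Of the 12 windows, 6 belonged to Sgk1 and 3 to Tsc22d3, so several starts of the same gene enter that count. Printed here are the upstream 250 bases of the Sgk1 window with the full repeat and of the Tsc22d3 window with the short form. The window of Hsd11b1, the activating enzyme described below, follows them. The repeat (Sgk1) or the short form (Tsc22d3) is in capitals, and the other Sgk1 windows with a match are not shown.
Sgk1, chr10:21993640-21993889, + strand: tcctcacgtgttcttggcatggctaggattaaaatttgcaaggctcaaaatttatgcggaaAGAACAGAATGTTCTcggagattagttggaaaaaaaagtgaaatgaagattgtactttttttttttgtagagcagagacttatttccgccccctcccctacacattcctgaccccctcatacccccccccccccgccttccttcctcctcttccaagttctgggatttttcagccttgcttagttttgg
Tsc22d3, chrX:140600523-140600772, - strand: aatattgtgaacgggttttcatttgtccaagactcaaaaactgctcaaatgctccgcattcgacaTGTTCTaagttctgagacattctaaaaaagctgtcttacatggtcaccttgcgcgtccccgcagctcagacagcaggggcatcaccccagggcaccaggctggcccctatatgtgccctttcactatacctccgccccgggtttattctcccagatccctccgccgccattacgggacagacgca
Hsd11b1, chr1:193242361-193242610, - strand, no match: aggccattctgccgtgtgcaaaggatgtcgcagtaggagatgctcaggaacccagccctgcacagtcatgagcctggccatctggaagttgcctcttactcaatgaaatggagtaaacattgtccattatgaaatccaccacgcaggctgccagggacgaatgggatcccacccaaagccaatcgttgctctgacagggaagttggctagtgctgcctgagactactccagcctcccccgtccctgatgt
In Sgk1 the repeat lay at chr10:21993701-21993715, beginning 189 bases before the start. A further short form, TGTTCT, began 242 bases before the start of the same window and is left in lower case. A match of letters is a description of the window and not evidence of binding, and counts from 3' ends cannot tell from which start a transcript came.

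Sorting into classes was done on raw counts of unique molecular identifiers (UMIs, each standing for a captured transcript) of a few genes. Cells kept had more than 500 genes and under 5% mitochondrial UMIs, which left 12984, 6414 and 15179 cells in mice 1, 2 and 3, with medians of 7392.5, 12192.5 and 6667 UMIs. Cells of the progenitor gate (at least 3 UMIs of Dpp4 and Pi16 together, at most 1 of Icam1 and Fabp4) numbered 7390, 3146 and 9257. The preadipocyte gate (at least 4 UMIs of Icam1 and Fabp4, at most 1 of Dpp4) held 2108, 1374 and 1856 cells. The regulatory gate (at least 1 UMI each of Clec11a and Fmo2, at most 1 each of Fabp4 and Dpp4) held 268, 381 and 402 cells, and the Cited1 gate (at least 2 UMIs of Cited1 and at least 2 of Fabp4 and Lpl) 212, 64 and 73. Regulatory-gate cells were the shallowest in each mouse, with medians of 4945, 9991 and 4575 UMIs. Medians were 7328, 12044.5 and 6688 UMIs in progenitors, 7994, 12961.5 and 7257.5 in preadipocytes, and 9263, 14151 and 8148 in the Cited1 gate. Markers not used in the gates matched the names of the first 3 gates. Cd55, Anxa3, Wnt2 and Sema3c summed to 2510 to 3524 CPM (UMIs of a gene per 1000000 UMIs of the summed cells) in the progenitor gate and to 148 to 892 in the others. Pparg, Cd36, Plin2, Col4a1 and Vcam1 summed to 3866 to 5258 CPM in the preadipocyte gate and at most 2823 elsewhere, and F3, Mgp, Gdf10 and Meox2 to 1886 to 2463 in the regulatory gate and at most 643 elsewhere. The Cited1 gate of mouse 2 stood apart: Car3, Ptn and Adipoq summed to 21.2 CPM there against 1272 in the highest mouse (576 ± 637 over the 3 mice, SD). In addition, 24 of the 64 cells of mouse 2 in this gate also met the progenitor rule. Because of this, many differences that involve that gate are also given without mouse 2. Counts of genes, shares of cells and the remaining differences of that gate are given with mouse 2 only. Summed mesothelial markers ranged from 0.960 CPM in mouse 1 to 217 in mouse 3 of this gate, with Krt19 at up to 217 and Msln at 0. They reached at most 32.3 in the other gates. The results without mouse 2 keep the high mesothelial sum of mouse 3. Mice 1 and 3 also differed from each other in the sum of Car3, Ptn and Adipoq.

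All values below are CPM of the UMIs summed over the cells of a mouse and gate. Differences are log2 fold changes from edgeR's quasi-likelihood test over 3 mice, with the mouse as a block and p adjusted over all genes tested; a gene rose or fell where adjusted p was below 0.05. The gates share libraries and were cut by measured genes, so genes that go with the gate genes had to differ as well. A sum cannot tell fewer expressing cells from less RNA in each. CPM are scaled by the total UMIs of a sum, and the fitted differences by TMM factors, a scale drawn from the bulk of genes. A fitted difference can therefore depart from the CPM ratios, in size or in sign.

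Nr3c1 (chr18:39410545-39519421, GRCm38) was present in every class. In mice 1, 2 and 3 it stood at 212, 142 and 191 CPM in the progenitor gate and at 245, 153 and 202 in the preadipocyte gate. The regulatory gate gave 253, 157 and 231 CPM, and the Cited1 gate 260, 158 and 196. Mouse 2 was lowest in every gate, and the spread between mice exceeded that between gates. Only the step from progenitor to regulatory passed the test among the 6 comparisons of gates, at 0.26 ± 0.09 (SE, adjusted p = 0.0337). That call was lost when any mouse was left out (adjusted p from 0.088 to 0.167). Preadipocyte and progenitor gates differed by 0.10 ± 0.08 (adjusted p = 0.337). For shares of cells with a UMI, cells were thinned to 3000 UMIs, and cells with fewer were left out. That removed 60, 42 and 109 cells of the regulatory gate in mice 1, 2 and 3. It removed 570, 63 and 803 progenitors, 59, 35 and 67 preadipocytes, and 2, 0 and 0 Cited1-gate cells. In the thinned cells a Nr3c1 UMI was found in 40.4% ± 6.50 of progenitor, 43.9% ± 7.51 of preadipocyte, 45.3% ± 7.34 of regulatory and 46.1% ± 7.78 of Cited1-gate cells (SD, n = 3).

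The converting enzymes, in contrast to the receptor, differed between classes. Hsd11b1 (chr1:193221634-193264075), the activating enzyme, was measured at 37.9, 51.8 and 33.5 CPM in progenitors and at 168, 362 and 206 in preadipocytes. All 3 preadipocyte values lay above the highest progenitor value, with mouse 2 highest in both. It was 5.6-fold higher in the preadipocyte gate (log2 2.49 ± 0.22, adjusted p = 1.15e-06), and this held in all 13 alternative analyses, from 2.33 to 2.69. The regulatory gate was intermediate, at 124, 171 and 109 CPM, which was 1.71 ± 0.24 above progenitors (adjusted p = 9.43e-05) and 0.77 ± 0.23 below preadipocytes (adjusted p = 0.0317). The second of these calls held in 10 of the 13 alternatives, where adjusted p reached 0.395. It was lost, among others, without mouse 3 (adjusted p = 0.289) and with DESeq2 (0.0876). In the Cited1 gate Hsd11b1 fell to 23.5, 125 and 42.1 CPM, below the preadipocyte gate of the same mouse in each case, by 2.24 ± 0.28 (adjusted p = 0.000571). Without mouse 2 the difference was -2.86 (adjusted p = 1e-04), and without mouse 3 it was -2.14 and no longer passed (adjusted p = 0.066). Cited1 and progenitor gates were not separated (0.25 ± 0.29, adjusted p = 0.568), and a single mouse set the outcome: the difference was -0.53 without mouse 2 (adjusted p = 0.114) and 0.82 without mouse 1, which passed (adjusted p = 0.0234).

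Hsd11b2 (chr8:105518755-105523988), the inactivating enzyme, is best known from the mineralocorticoid target cells of the kidney. Progenitors had 34, 19 and 39 UMIs of it in all, or 0.633, 0.499 and 0.633 CPM. Of the 19 UMIs in mouse 2, 10 came from a single barcode. Preadipocytes gave 20.3, 21.6 and 22.8 CPM, with the mice close together, and 36.3-fold more (log2 5.18 ± 0.29, adjusted p = 2.01e-08). The regulatory gate stayed low at 2.83, 2.19 and 3.64 CPM, resting on 4, 8 and 7 UMIs. It was below preadipocytes by 2.86 ± 0.45 (adjusted p = 0.000631) and above progenitors by 2.32 ± 0.71 (adjusted p = 0.0204, 0.168 without mouse 3). The Cited1 gate held the highest values, 95.1 and 67.7 CPM in mice 1 and 3, but 21.2 in mouse 2, just under the preadipocyte value of that mouse. The make-up of the gate differed between mice. In mice 1, 2 and 3, 170, 23 and 34 of its cells also met the preadipocyte rule, with Hsd11b2 at 105, 41.2 and 92.5 CPM. The progenitor rule was met by 9, 24 and 16 of its cells, with Hsd11b2 at 0, 3.08 and 0 CPM. In the cells that also met the preadipocyte rule, Hsd11b1 stood at 19.6, 209 and 31.9 CPM in mice 1, 2 and 3. Those cells had 0.187, 5.07 and 0.345 Hsd11b1 UMIs for each Hsd11b2 UMI, so mouse 2 stood apart within this part as well. In the cells that also met the progenitor rule, Hsd11b1 stood at 52.1, 46.2 and 7.51 CPM, on 4, 15 and 1 UMIs. The Hsd11b2 value of 41.2 rests on 15 UMIs, and these parts were not tested. Against progenitors the whole Cited1 gate was higher in each mouse (6.55 ± 0.34, adjusted p = 1.03e-07), and against preadipocytes in 2 of 3 (1.37 ± 0.27, adjusted p = 0.00993). The latter difference was 1.82 without mouse 2 (adjusted p = 0.000337), and fell short of the threshold without mouse 1 (0.74, adjusted p = 0.221) and without mouse 3 (1.35, adjusted p = 0.177).

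**Figure D1:**
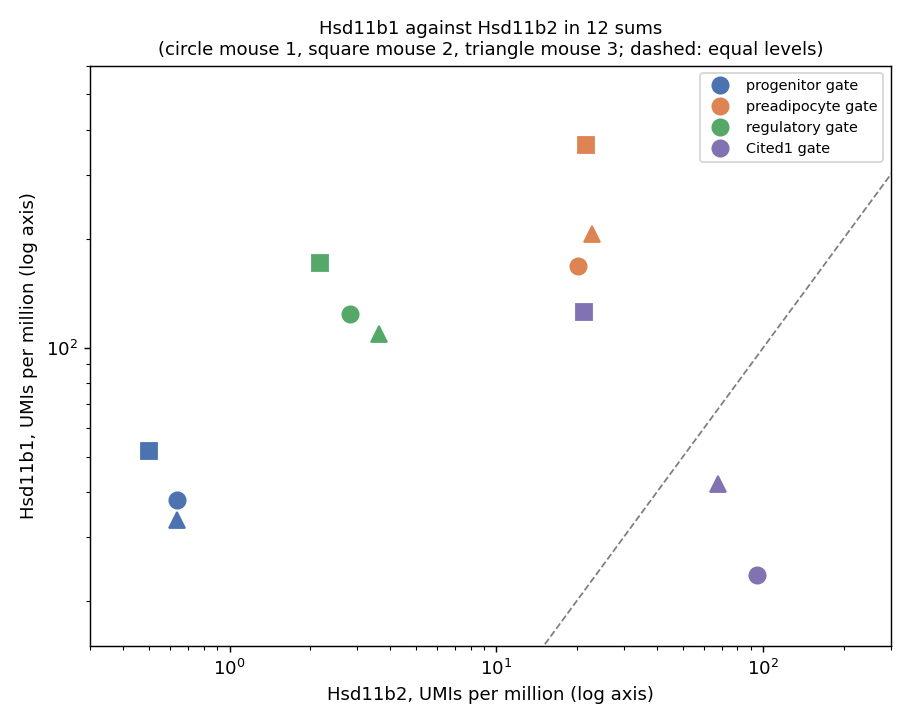
Hsd11b1 (vertical) against Hsd11b2 (horizontal) in CPM on log axes, with a point for each of the 12 sums of 3 mice and 4 gates; the dashed line marks equal levels. Progenitor sums lie at the lower left, preadipocyte sums at the upper centre, and the Cited1-gate sums of mice 1 and 3 are the 2 points to the right of the line.

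The balance of the enzymes is seen in the plot of one against the other. Progenitors had 59.9, 104 and 52.9 Hsd11b1 UMIs for each Hsd11b2 UMI, and the regulatory gate 43.8, 78.3 and 30. The 104 of mouse 2 rests on 19 Hsd11b2 UMIs, 10 of them from a single barcode. In preadipocytes the ratio was 8.30, 16.7 and 9.07, below both other gates in every mouse. In the Cited1 gate it was 0.247 in mouse 1 (49 Hsd11b1 against 198 Hsd11b2 UMIs) and 0.622 in mouse 3 (28 against 45). The inactivating enzyme thus had more UMIs over the whole gate in those mice. In mouse 2 the ratio was 5.9 (118 against 20). The gate's cells that met no other rule numbered 31, 14 and 21. Their ratio was 0.444, 3.75 and 1.13 in mice 1, 2 and 3, on 12 and 27, 15 and 4, and 17 and 15 UMIs. These ratios compare the capture of 2 transcripts by their 3' ends, without a correction for differences in capture, and are no measure of enzyme activity.

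Doublets were not removed, so that UMIs of both enzymes under 1 barcode need not come from 1 cell. Of the preadipocyte-gate cells, 250, 208 and 210 had a Hsd11b2 UMI, and 123, 185 and 130 of those also had Hsd11b1. Over the whole gate, 56.2%, 85.9% and 61.6% of cells had Hsd11b1. Hsd11b1 stood at 133, 320 and 181 CPM in the cells with a Hsd11b2 UMI and at 173, 370 and 210 in those without, lower in each of the 3 mice. This difference was not tested. In thinned cells Hsd11b2 was detected in 5.38% ± 0.07 of preadipocytes, 0.96% ± 0.07 of regulatory, 0.16% ± 0.08 of progenitor and 15.2% ± 7.63 of Cited1-gate cells (SD, n = 3). Hsd11b1 was detected in 43.4% ± 12.4 of thinned preadipocytes and 9.79% ± 2.08 of progenitors. Residual cells with endothelial markers gave 4.88%, 5% and 7.14% in mice 1, 2 and 3 (in mouse 1, 2 of 41 cells, exact 95% interval 0.596 to 16.5%). Residual cells with mural markers gave 18.8%, 29.4% and 15.6%, and the few with leukocyte markers 30%, 25% and 40%, of 10, 8 and 5 thinned cells. The progenitor share (9.31, 12.1 and 8.00%) lay above the endothelial share in each mouse, and the preadipocyte share (33.0, 57.1 and 40.2%) above the mural share. The interval of the 41 endothelial cells of mouse 1 was wide and held the progenitor share too. In the same mouse the intervals of preadipocytes (31.0 to 35.1%) and mural cells (8.95 to 32.6%) overlapped. Intervals cover counting error only.

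**Figure D2:**
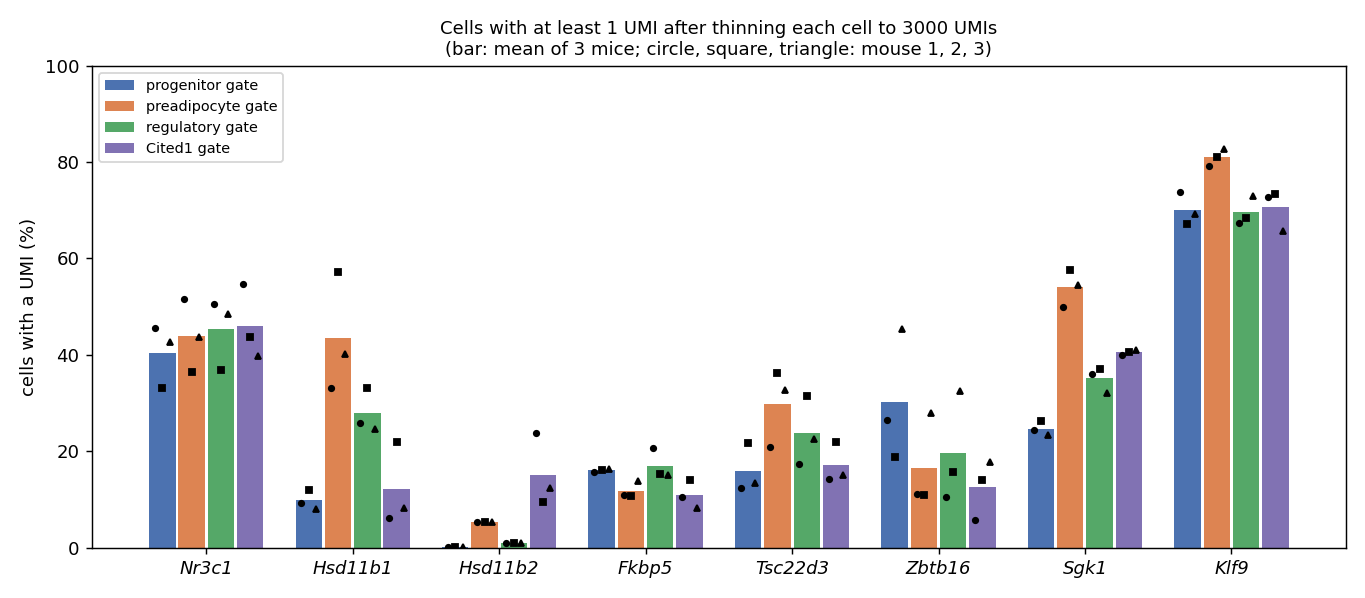
Percent of cells with at least 1 UMI of each gene (vertical) after thinning to 3000 UMIs, for the 4 gates. Cells with fewer than 3000 UMIs were left out. Bars are means of 3 mice and symbols single mice. Hsd11b1 and Sgk1 peak in the preadipocyte gate, Hsd11b2 in the Cited1 gate, and Nr3c1 is near 40 to 46% in every gate.

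The response genes did not move as a block. Sgk1 (chr10:21882184-21999903) was measured at 131, 140 and 119 CPM in progenitors and 338, 428 and 359 in preadipocytes, with no overlap. It was 2.82-fold higher (log2 1.50 ± 0.10, adjusted p = 1.06e-07), and the call held in all 13 alternatives. The regulatory gate, at 185, 225 and 199 CPM, lay between and apart from both, 0.68 ± 0.11 above progenitors (adjusted p = 0.000252) and 0.82 ± 0.11 below preadipocytes (adjusted p = 0.000156). The Cited1 gate, at 277, 232 and 230 CPM, was below preadipocytes by 0.74 ± 0.11 (adjusted p = 0.00174, or 0.0137 without mouse 2 and 0.0928 without mouse 3). Its CPM values lay above those of the regulatory gate in each mouse, without overlap, but the difference did not pass the test (0.08 ± 0.11, adjusted p = 0.727). The log2 CPM ratios, scaled by total UMIs, were 0.58, 0.0466 and 0.209 in mice 1, 2 and 3. With library-size scaling in the fit, the median of all genes in this comparison was 0.224, against 0.0148 with TMM. Against progenitors the Cited1 gate was higher by 0.76 ± 0.11 (adjusted p = 0.000218), without overlap. That call held in 13 of 14 alternatives, where adjusted p reached 0.139.

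Tsc22d3 (chrX:140539528-140600659) also rose toward preadipocytes, but with a wide spread between mice. Progenitors gave 48.1, 95.4 and 52.5 CPM and preadipocytes 85.4, 188 and 153. Mouse 2 was highest in every gate, so that the groups overlapped although each mouse rose. The difference was 1.08 ± 0.14 with the mouse as a block (adjusted p = 2.5e-05) and did not pass without the block (adjusted p = 0.0828). The regulatory gate (75.0, 153 and 122 CPM) was 0.86 ± 0.15 above progenitors (adjusted p = 0.000647) and not separated from preadipocytes (-0.22 ± 0.15, adjusted p = 0.344). Its rise over progenitors passed in 12 of 13 alternatives, where adjusted p reached 0.186. The Cited1 gate (39.4, 127 and 82.8 CPM) was below preadipocytes in each mouse by 1.00 ± 0.17 (adjusted p = 0.00398, or 0.00658 without mouse 2 and 0.0721 without mouse 3). From progenitors it was not separated (0.08 ± 0.17, adjusted p = 0.772).

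Klf9 (chr19:23141226-23168134) was the most abundant of the 8 messages in CPM, which are not corrected for differences in capture between transcripts. It stood at 535, 444 and 456 CPM in progenitors and 653, 703 and 712 in preadipocytes. The groups did not overlap, at a difference of 0.50 ± 0.15 (adjusted p = 0.0133) that missed the threshold without mouse 2 (0.41, adjusted p = 0.0801). The regulatory gate (423, 504 and 519 CPM) was not separated from progenitors (0.05 ± 0.15, adjusted p = 0.836), nor was the Cited1 gate (543, 547 and 360 CPM, -0.16 ± 0.15, adjusted p = 0.486). The Cited1 gate was 0.66 ± 0.15 below preadipocytes (adjusted p = 0.0228, 0.0331 without mouse 2 and 0.243 without mouse 3). Regulatory-gate values lay below preadipocytes in each mouse, without overlap, but did not pass (-0.45 ± 0.15, adjusted p = 0.0528). Cited1 and regulatory gates were not separated (-0.21 ± 0.16, adjusted p = 0.441).

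Fkbp5 and Zbtb16 went the other way. Fkbp5 (chr17:28399094-28517527) fell from 58.3, 62.4 and 61.4 CPM in progenitors to 41.2, 40.1 and 51.6 in preadipocytes. The 3 preadipocyte values lay below all progenitor values, by 0.49 ± 0.14 (adjusted p = 0.0119, but 0.0549 with DESeq2 and 0.119 without the block). Regulatory-gate cells had 85.6, 69.1 and 55.7 CPM, 0.71 ± 0.17 above preadipocytes (adjusted p = 0.0117, or 0.0847 without mouse 1) and not separated from progenitors (0.22 ± 0.17, adjusted p = 0.33). The Cited1 gate (34.1, 56.3 and 30.1 CPM) was 0.79 ± 0.21 below progenitors (adjusted p = 0.0147, 0.00504 without mouse 2), a call that was lost without mouse 1 (0.171) or mouse 3 (0.0832). From preadipocytes the Cited1 gate was not separated (-0.30 ± 0.22, adjusted p = 0.506).

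Zbtb16 (chr9:48654297-48836222) also differed between mice. Progenitors gave 102, 73.9 and 210 CPM and preadipocytes 40.9, 41.4 and 118. Mouse 3 was the highest in every gate and its preadipocytes exceeded the progenitors of the other 2 mice, yet within each mouse the gene fell, by 1.03 ± 0.13 (adjusted p = 2.15e-05; 0.221 without the block). The regulatory gate (43.9, 55.4 and 120 CPM) was 0.76 ± 0.15 below progenitors (adjusted p = 0.00124). That call held in 12 of 13 alternatives, where adjusted p reached 0.372. The Cited1 gate (23.5, 35.0 and 90.3 CPM) was 1.69 ± 0.18 below progenitors (adjusted p = 2.2e-05, and 2.6e-05 without mouse 2). Neither of these gates was separated from preadipocytes (0.27 ± 0.15, adjusted p = 0.247, and -0.66 ± 0.19, adjusted p = 0.0529; the latter passed without mouse 2, at -0.77 and adjusted p = 0.037).

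**Figure D3:**
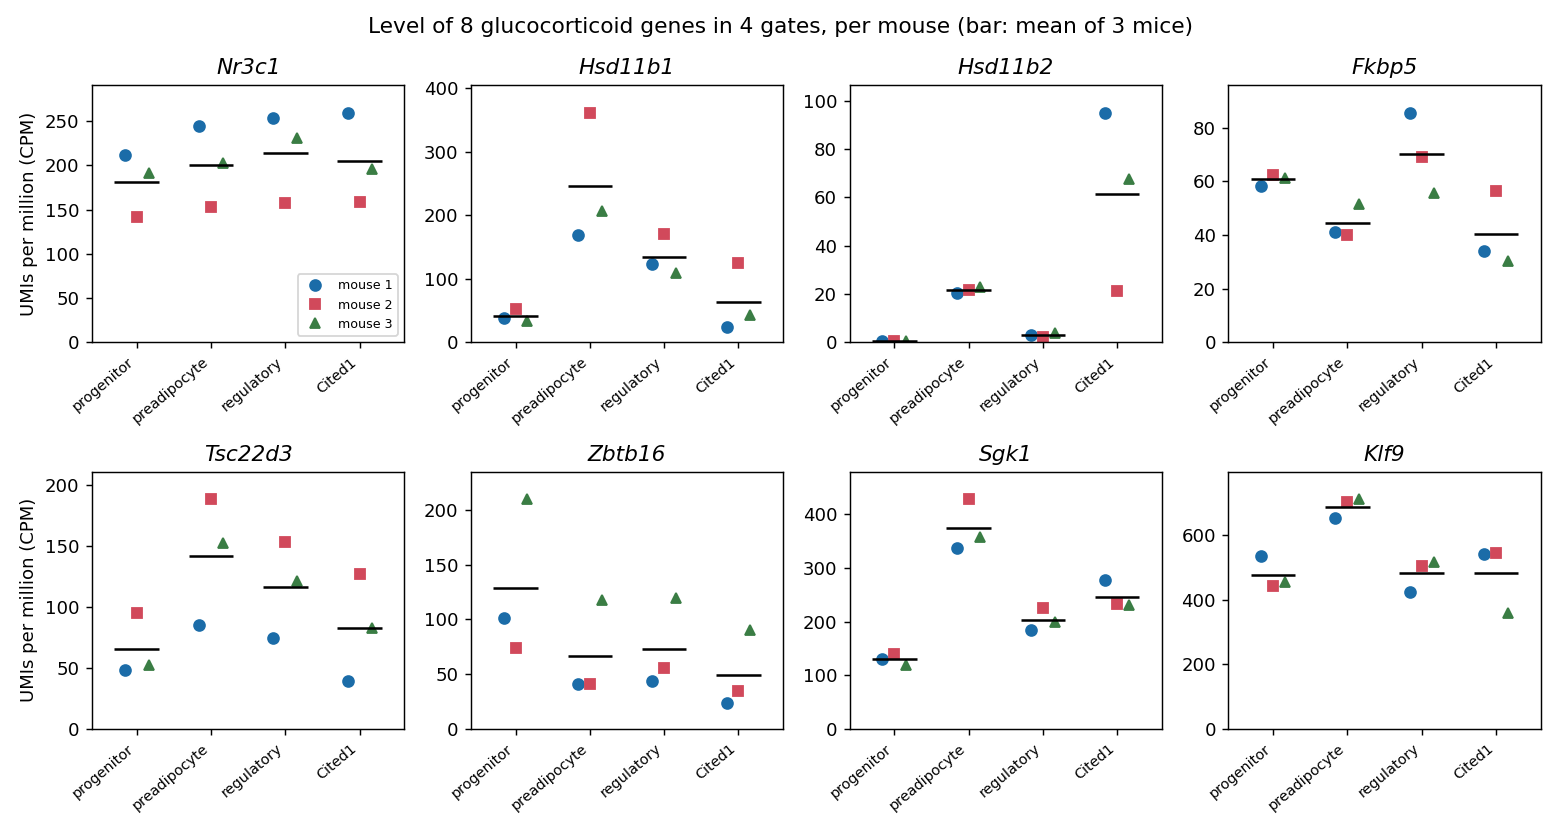
CPM of each gene (vertical, from 0) in the 4 gates, with a symbol for each mouse and a bar at the mean of 3 mice. Sgk1 and Hsd11b1 are highest in preadipocytes, Zbtb16 in progenitors, and mouse 3 is the highest for Zbtb16 in all 4 gates.

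The number of calls among the 8 genes is set beside that among all genes, since many genes differed between gates. Of the 8 genes, 5 rose and 2 fell in preadipocytes, where 51.1% of the 12507 genes tested differed, 25.1% upward and 26.0% downward. Between regulatory and progenitor gates 5 rose and 1 fell, against a background of 38.5% (18.6% upward and 19.9% downward). Between regulatory and preadipocyte gates 1 rose and 3 fell, against 20.4% (10.9% and 9.54%). In the Cited1 gate 1 of 8 rose and 4 fell relative to preadipocytes, where 7.18% of genes differed (3.23% upward and 3.95% downward). Relative to progenitors 2 rose and 2 fell (29.6% of genes, 13.2% up and 16.5% down), and relative to the regulatory gate 1 rose and 4 fell (14.9%, 6.54% up and 8.39% down). In that last comparison Hsd11b2 rose by 4.23 ± 0.46 on the log2 scale (adjusted p = 0.000109, and 1.92e-05 without mouse 2). The 4 that fell were Hsd11b1 (-1.47 ± 0.29, adjusted p = 0.00525), Fkbp5 (-1.01 ± 0.23, adjusted p = 0.0126), Zbtb16 (-0.93 ± 0.20, adjusted p = 0.00856) and Tsc22d3 (-0.78 ± 0.18, adjusted p = 0.013). All 4 remained below the threshold without mouse 2 and all 4 exceeded it without mouse 3 (adjusted p = 0.112, 0.0555, 0.0896 and 0.0853 in the same order). Over all genes, 1712 of 12673 passed without mouse 2 and 633 of 12895 without mouse 3, against 1867 of 12507 with all mice.

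The wider response was mixed too. Of 28 further genes that glucocorticoids are known to raise, 26 were tested and 11 rose and 9 fell in preadipocytes relative to progenitors, with a median of 0.19 against 0.01 for all genes. Of all genes tested, 25.1% rose and 26.0% fell in this contrast, which is the background for every list counted in it. Txnip, an inhibitor of glucose uptake, went from 148 ± 29.9 to 1117 ± 39.6 CPM (SD, n = 3; log2 2.90, adjusted p = 8.14e-08). Angptl4, a lipoprotein lipase inhibitor, went from 63.3 ± 14.9 to 439 ± 37.1 CPM (2.80, adjusted p = 5.41e-08). Both are also targets of other lipid- or glucose-sensing factors. Rhob rose by 1.17 (adjusted p = 7.32e-07) and Ddit4 by 0.76 (adjusted p = 0.0142, 0.23 without mouse 3). In the opposite direction, Errfi1, a feedback inhibitor of the EGF receptor, was 2022 ± 70.2 CPM in progenitors and 460 ± 50.3 in preadipocytes (-2.17, adjusted p = 1.33e-06). Ampd3 (-2.24, adjusted p = 3.05e-08), the clock gene Per1 (-1.31, adjusted p = 2.34e-07) and Cebpb (-0.77, adjusted p = 8.43e-05), which encodes an early factor of adipogenesis, fell as well.

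Of the 8 genes that glucocorticoids are known to restrain, 6 were tested, 3 fell and 1 rose. Ptgs2, the inducible cyclooxygenase, fell from 1251 ± 110 to 131 ± 41.5 CPM (-3.32, adjusted p = 2.32e-07). The monocyte attractant Ccl2 fell by 1.47 on the log2 scale (adjusted p = 2.71e-05) and Il6 by 0.64 (adjusted p = 0.0138, 0.0776 without mouse 3). The matrix protease Mmp3 rose from 389 ± 134 to 1533 ± 285 CPM (1.98, adjusted p = 4.16e-06).

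Among 22 tested genes of the receptor's machinery 4 rose and 8 fell, where 51.1% of all genes differed. H6pd, the NADPH source of Hsd11b1, was 21.9 ± 3.74 CPM in progenitors and 43.9 ± 6.35 in preadipocytes (0.97 ± 0.12, adjusted p = 1.45e-05), and it rose in the regulatory gate too (36.1 ± 8.40 CPM, 0.77 over progenitors, adjusted p = 0.00212). In the Cited1 gate it was 25.9 ± 11.8 CPM, 0.99 below preadipocytes (adjusted p = 0.0132, but 0.108 without mouse 1 and 0.157 without mouse 3). The chaperones Hsp90aa1 (0.99, adjusted p = 1.77e-05) and Hspa8 (0.50, adjusted p = 0.000645) rose, as did the co-repressor Ncor1 (0.37, adjusted p = 0.00518, 0.0847 without mouse 3). Srd5a1, a steroid reductase that degrades glucocorticoids, fell from 32.2 ± 7.26 to 3.21 ± 1.05 CPM (-3.36, adjusted p = 7.92e-08). The co-chaperone Bag1 (-1.14, adjusted p = 2.12e-06), the co-activator Ncoa2 (-0.79, adjusted p = 2.26e-06) and the importin Ipo13 (-0.43, adjusted p = 0.00565) fell.

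Genes of the response to tissue digestion moved with the same contrast. Of 17 listed, 12 rose and 2 fell, and their sum was 16576 to 20183 CPM in progenitors and 25257 to 32408 in preadipocytes, without overlap. Jun (1.41, adjusted p = 7.92e-08), Dnajb1 (1.32, adjusted p = 1.01e-06), Dnaja1 (1.31, adjusted p = 1.95e-05) and Ier2 (1.20, adjusted p = 1.53e-05) rose, and Nr4a1 (-2.26, adjusted p = 1.26e-07) and Ier3 (-1.11, adjusted p = 0.000472) fell. The list stood at 24847 to 28860 CPM in the regulatory and 25335 to 32285 in the Cited1 gate. Its part in the values of Sgk1, Tsc22d3, Klf9 or Hsp90aa1 was not tested. Of 14 tested clock genes 6 rose and 5 fell, with Hlf at 1.61 (adjusted p = 4.94e-05), Per2 at 0.99 (adjusted p = 9.75e-05), Nr1d2 at -1.82 (adjusted p = 1.91e-06) and Cry2 at -0.91 (adjusted p = 2.22e-07). Summed mural markers were 31.3 to 51.3 CPM in preadipocytes and 7.46 to 9.40 in progenitors, without overlap. Endothelial markers were 3.24 to 51.7 and 2.52 to 8.38 CPM, and leukocyte markers 0.612 to 2.79 and 0.925 to 3.6, with overlap. The part of these cells in the differences was not tested.

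In the remaining comparisons the known raised genes counted 7 up and 5 down of 26 between regulatory and preadipocyte gates, with Fam107a, an actin-associated stress gene, at 21.4 ± 5.88 against 1.47 ± 0.326 CPM (3.93, adjusted p = 5.39e-07). They counted 11 up and 7 down between regulatory and progenitor gates. In the Cited1 gate they counted 5 and 9 against progenitors, 4 and 8 against the regulatory gate, and 0 and 3 against preadipocytes. Of all genes tested, 10.9% were up and 9.54% down between regulatory and preadipocyte gates. The other comparisons, in the order just given, had 18.6 and 19.9%, 13.2 and 16.5%, 6.54 and 8.39%, and 3.23 and 3.95%. Those shares are the background for all lists here. The restrained genes counted, in the same order of comparisons, 1 and 0, 2 and 3, 1 and 4, 1 and 3, and 1 and 3 of 6. The machinery counted 3 and 5, 3 and 8, 4 and 6, 5 and 3, and 0 and 2 of 22, the digestion list 4 and 3, 12 and 1, 12 and 2, 1 and 5, and 1 and 2 of 17, and the clock list 0 and 1, 2 and 3, 2 and 3, 1 and 0, and 0 and 0 of 14.

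The study set ICAM1+ cells of high CD44 against those of low CD44, by clusters of its single-cell data and by sorting on surface protein. A related comparison was made within the preadipocyte gate, between cells with at least 2 Cd44 UMIs (261, 306 and 319 cells) and cells with none (1460, 747 and 1138). It rests on message and not on protein. The gate adds Icam1 and Fabp4, so a cell can pass it without an Icam1 UMI. The cells of the first set were deeper, with medians of 8781, 13668.5 and 7560 UMIs against 7826.5, 12594 and 7099.5. Of the 8 genes 2 rose and 3 fell in the Cd44-high set, where 18.8% of 11243 genes differed, 12.6% upward and 6.22% downward. Summed endothelial markers were 5.07 to 80.7 CPM in Cd44-low and 0 to 1.55 in Cd44-high cells, without overlap, and leukocyte markers 0.714 to 4.44 and 0 to 0.823; their part in the values was not tested. Tsc22d3 was lower in every mouse, at 54.8, 126 and 88.9 CPM against 96.6, 225 and 175. The sets overlapped across mice because mouse 2 was highest in both, but the paired difference was -0.78 ± 0.08 (adjusted p = 5.81e-06). With cells thinned to 3000 UMIs before gating and the high set taken from 1 Cd44 UMI, which changes depth and cells together, it was -0.59 (adjusted p = 0.000776). Without the mouse as a block, none of the 5 calls among the 8 genes passed (adjusted p from 0.486 to 0.761). Over all genes, 15 of 11243 passed without the block, against 2112 with it.

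Hsd11b1 was lower in each mouse as well, at 113, 269 and 145 CPM against 186, 410 and 232 (-0.56 ± 0.07, adjusted p = 4.34e-05). On thinned cells with the cut at 1 Cd44 UMI the difference was -0.25 and did not pass (adjusted p = 0.199). Hsd11b2 stood at 17.1, 14.2 and 19.3 CPM against 20.9, 24.0 and 23.2, without overlap, and did not pass the test (-0.37 ± 0.14, adjusted p = 0.0818). The receptor was lower too, at 208, 127 and 162 CPM against 259, 168 and 219 (-0.28 ± 0.07, adjusted p = 0.00937, but 0.0866 without mouse 3 and 0.108 with DESeq2).

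Zbtb16 and Fkbp5 were higher in the Cd44-high set. Zbtb16 was 43.2, 55.7 and 147 CPM against 40.4, 32.1 and 105 (0.59 ± 0.11, adjusted p = 0.00143), with little difference in mouse 1, and 0.33 with adjusted p = 0.328 on thinned cells with the cut at 1 Cd44 UMI. Fkbp5 was 48.8, 44.2 and 59.3 CPM against 39.2, 40.3 and 50.1 (0.32 ± 0.09, adjusted p = 0.0176). That call was lost without any of the mice (adjusted p from 0.0646 to 0.114), with DESeq2 (0.341) and on the thinned cells (0.07, adjusted p = 0.94). Sgk1 (383, 460 and 314 against 333, 401 and 358 CPM; 0.17 ± 0.08, adjusted p = 0.141) and Klf9 (756, 637 and 670 against 639, 740 and 726 CPM; 0.07 ± 0.07, adjusted p = 0.566) did not keep a direction across mice.

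**Figure D4:**
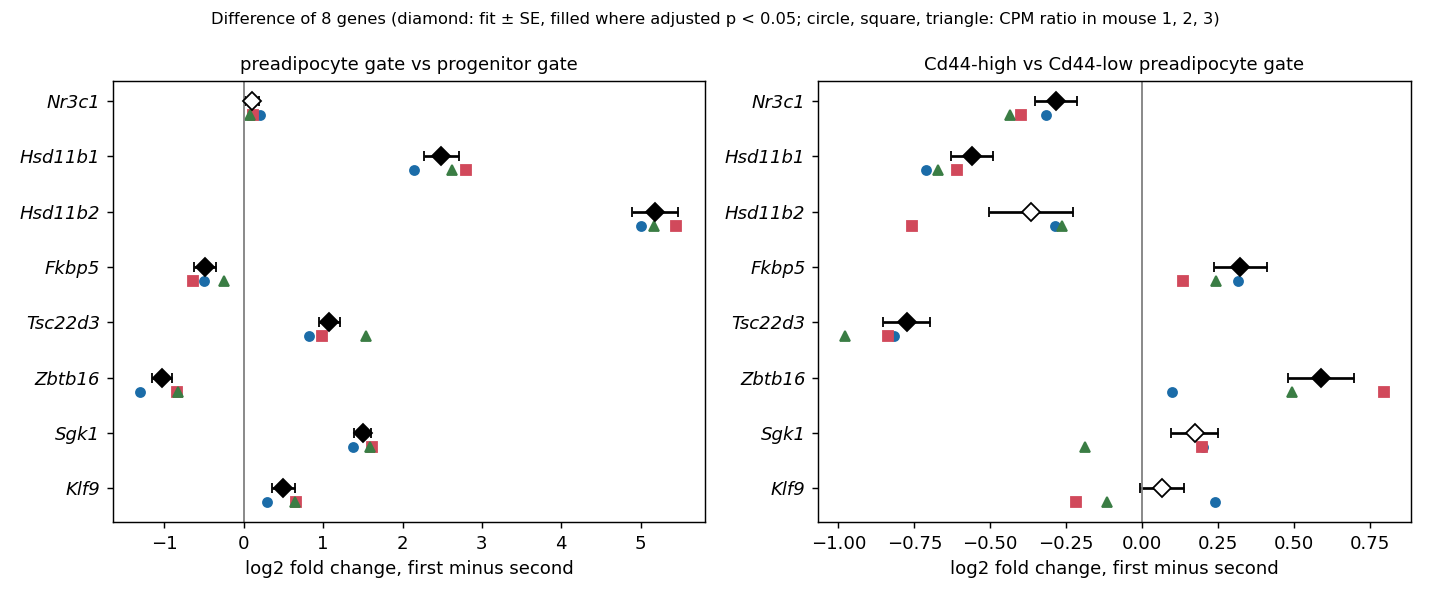
Log2 fold change of each gene (horizontal; diamonds are fitted values with SE, filled where adjusted p is below 0.05) with the CPM ratio of each mouse beneath it, for preadipocytes against progenitors (left) and Cd44-high against Cd44-low preadipocytes (right). Hsd11b1 and Tsc22d3 lie above 0 on the left and below 0 on the right, and Zbtb16 the reverse. Fitted values use TMM scaling and CPM ratios use total UMIs, so a diamond can lie outside the symbols of the mice.

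Of the restrained genes, 6 of 6 tested were higher in Cd44-high cells, where 12.6% of all genes were, with a median of 1.24 against 0.00 for all genes. The list was not chosen independently of these data. Without the mouse as a block, where 15 of 11243 genes passed, the 4 genes named next did not (adjusted p from 0.117 to 0.126). Il6 was 318 ± 118 against 104 ± 50.1 CPM (SD, n = 3; log2 1.73, adjusted p = 1.17e-06) and Ccl2 1598 ± 427 against 630 ± 267 (1.48, adjusted p = 4.83e-08). Ccl7 (1.44, adjusted p = 4.83e-08) and Cxcl1 (1.03, adjusted p = 9.39e-07), both attractants of blood cells, followed. The raised genes were split, with 9 up and 8 down of 23, where 12.6% of all genes were up and 6.22% down. The metallothioneins Mt2 (1.35, adjusted p = 2.04e-07) and Mt1 (0.92, adjusted p = 2.06e-06), glutamine synthetase Glul (0.93, adjusted p = 7.18e-06) and Errfi1 (0.74, adjusted p = 8.44e-07) rose. Txnip fell from 1410 ± 92.5 to 437 ± 83.9 CPM (-1.61, adjusted p = 5.81e-08), and Pdk4 (-1.39, adjusted p = 0.00208), Ddit4 (-1.13, adjusted p = 0.000114) and Angptl4 (-0.69, adjusted p = 6.2e-06) fell with it. The study had named Mt2 and Txnip as markers of its CD44-high and CD44-low populations from these same data, so their differences here are not independent of it. It also measured both by qRT-PCR in sorted cells, with Mt2 high in the CD44-high and Txnip in the CD44-low population. Markers of the populations were followed there after induction of adipogenesis and after changes of Noct as well.

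Here the digestion list went the opposite way to the contrast of gates, with 3 of 17 up and 9 down and sums of 21440 to 27200 CPM in Cd44-high against 26818 to 33644 in Cd44-low cells. Hspa1a (-1.13, adjusted p = 5.81e-08), Hspa1b (-0.84, adjusted p = 1.92e-05), Ier2 (-0.73, adjusted p = 6.09e-07) and Jun (-0.73, adjusted p = 1.78e-06) were lower, and Socs3 was higher (0.47, adjusted p = 0.00112). Hsp90aa1 (-0.66, adjusted p = 6.65e-07) and Hsp90ab1 (-0.45, adjusted p = 2.75e-05), which are chaperones of the receptor and heat-responsive as well, were lower; the machinery counted 2 up and 2 down of 21. The clock list counted 4 up and 2 down of 13, with Bhlhe40 at 0.71 (adjusted p = 3.75e-05). The background for these lists was 12.6% of all genes up and 6.22% down. Whether digestion or depth had a part in the values of Tsc22d3 or Hsd11b1 was not tested; the thinned values above changed the Cd44 cut as well as the depth.

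Across the 12 sums of mice and gates, the 3 genes whose log2 CPM ran most like Hsd11b1 were Slc8b1 (Pearson r 0.975), H6pd (0.966) and Gstt1 (0.964). Those most like Hsd11b2 were Acot7 (0.986), Fndc5 (0.985) and Arc (0.979), and those most like Sgk1 were Cd63 (0.989), Fads6 (0.975) and Tmem97 (0.954). Tsc22d3 ran with Fas (0.942), H6pd (0.930) and Slc8b1 (0.930), so that H6pd and Slc8b1 were named for both genes. Fkbp5 ran with Gpd1l (0.958), Crocc (0.946) and Slc47a1 (0.945), Nr3c1 with Pdia3 (0.948), Fam114a1 (0.947) and Gulp1 (0.930), Zbtb16 with Bach1 (0.927), Syde2 (0.925) and Efcc1 (0.921), and Klf9 with Dnajc25 (0.898), Fam110b (0.893) and Dcst2 (0.879). These are the highest values among all genes tested, over sums that share mice and depth, and are given as a description.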

How the data were processed

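Cells of 3 libraries, one per mouse, were analysed. The deposited values are raw UMI counts per gene and barcode, made by the authors with Cell Ranger (cellranger 4.0.0 in the file headers, Cell Ranger 2.1.1 and build mm10 in the submitters' processing notes); the methods name the 3' v2 chemistry. The barcode files were used for cell names only, and any pair of libraries shared 52 to 81 barcodes. Kept cells held 94816520, 78108414 and 99328725 UMIs. Cells passing the Cited1 gate were counted there only, and cells passing more than 1 of the other gates were left out. Doublets were not removed. UMIs were summed per mouse and gate, and tested with edgeR 4.0.16 (R 4.3.3; filterByExpr, TMM, quasi-likelihood F test, mouse as a block, Benjamini-Hochberg, threshold 0.05); gate genes were not tested. The 4 gates of a mouse come from one animal, which is the pairing; within mice, deviations of sums from the gate means correlated with r of at least 0.0755, 0.153 and 0.0757. The fit was also run on simulated counts, with the same dispersion for every gene and no differences between mice in the gate effects. That setting is simpler than these data and does not speak to their spread. Alternatives were DESeq2 1.42.0, library-size scaling, no filter, no block, other gates, depth and cell filters, and leaving out each mouse. The 8 genes and the gene lists were chosen with earlier results of these data known. The 8 were tested in every comparison. Of a list, at most 4 called genes a direction are named, by size, if all mice moved alike and a group reached 10 CPM. Positions are from GENCODE M21, where no exon of another gene overlapped any of the 8. Figures were drawn with matplotlib.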

Additional observations from a re-analysis of the deposited data

How the results depend on the processing

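Without the replicate block, which ignores that gates come from the same mice, the genes past the threshold numbered 3362 (with it 6388) for preadipocyte against progenitor, 2690 (with it 4816) for regulatory against progenitor, 1172 (with it 2557) for regulatory against preadipocyte, 217 (with it 898) for Cited1 against preadipocyte, 2039 (with it 3705) for Cited1 against progenitor, 811 (with it 1867) for Cited1 against regulatory, and 15 (with it 2112) for Cd44-high against Cd44-low. DESeq2 called 684 genes in the Cd44 comparison. With the filter on low counts dropped, 1523 genes differed between Cited1 and preadipocyte gates. With gates on 3000 UMIs, the counts were 2924 (regulatory against progenitor), 1701 (regulatory against preadipocyte), 468, 1863 and 1080 (Cited1 against preadipocyte, progenitor and regulatory) and 292 (Cd44). For the Cited1 gate in the same order, moving shared cells to the other gate gave 489, 1180 and 768, fitting only the gates compared gave 338, 1958 and 704, and leaving out the cells with the most UMIs gave 560 against preadipocytes.

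Leaving out one mouse gave 4650 to 5687 (preadipocyte against progenitor), 3010 to 3965 (regulatory against progenitor), 1197 to 1912 (regulatory against preadipocyte), 148 to 924, 1760 to 3766 and 633 to 1712 (Cited1, same order) and 1063 to 1887 (Cd44). Library-size scaling put the median of all genes at 0.15, 0.17 and 0.22 in the Cited1 comparisons, against -0.0028, -0.0040 and 0.015, and moved the share of calls that were higher from 45.0 to 73.8%, 44.4 to 66.2% and 43.8 to 74.6%; it went from 53.3 to 43.0% for regulatory against preadipocyte and from 66.9 to 40.9% for Cd44, where DESeq2 gave 83.6%.

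Reversals concerned comparisons in which the gene did not pass the test; Hsd11b1 in Cited1 against progenitor passed in 1 alternative, without mouse 1. For Cited1 against progenitor, Nr3c1 took 0.17 under library size, 0.028 with DESeq2, 0.013 at 3000 UMIs, 0.043 without the deepest cells, 0.011 in the Cited1 gate without cells of the progenitor or regulatory gate (chosen after seeing the data) and -0.065 to 0.090 leaving out a mouse; against preadipocytes it took 0.041 under library size. Klf9 took -0.043 without the filter and -0.056 to 0.21 leaving out a mouse in regulatory against progenitor, 0.021 (library size) and -0.35 to 0.016 (a mouse left out) in Cited1 against progenitor, 0.0048 and -0.35 to 0.068 likewise against regulatory, and -0.031 and -0.063 to 0.13 in the Cd44 comparison. For Cited1 against progenitor, Tsc22d3 took -0.11 to 0.39 leaving out a mouse, -0.40 at 3000 UMIs and -0.097 with stricter gates, and Hsd11b1 -0.53 to 0.82 leaving out a mouse. Sgk1 took -0.064 to 0.17 leaving out a mouse and -0.17 with shared cells moved, in Cited1 against regulatory. The cause of these changes was not tested.

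The Cited1 sums of mice 2 and 3 hold 942083 and 664551 UMIs and limit every value of that gate. Only 3 mice, one library each, stand behind every p.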
